A study of Mus musculus with 48 samples.

Results

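The mural genes Acta2, Tagln, Myh11, Cnn1, Rgs5, Cspg4, Kcnj8, Abcc9, Mylk and Mrvi1 were followed across lymphatic endothelium, blood endothelium and cardiomyocytes of the mouse. They were taken by name as marker genes of pericytes and vascular smooth muscle, with earlier results of these data known. Of the 54752 genes in the expression matrix these were 10, and all 10 were found by their mouse symbols. No mural cell population was sequenced, so every value below is the level of a mural gene in RNA from another sorted or pelleted cell type.

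Mural cells wrap the vessel wall on its outer side. Smooth muscle cells surround arteries, veins and collecting lymphatic vessels, and they contract when myosin light chain is phosphorylated, while nitric oxide relaxes them through cyclic GMP. Pericytes sit on capillaries, share a basement membrane with the endothelium and carry receptors for the PDGF-B that endothelial cells secrete. In the heart, where the capillary bed is dense, pericytes are abundant, whereas initial lymphatic capillaries normally lack a mural coat.

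The animals were male C57BL/6 mice with an IRES-eGFP cassette in the Prox1 locus, so that green fluorescence followed Prox1, the transcription factor that defines lymphatic identity, and all groups carried this allele. Control mice (ctrl), mice infused with angiotensin II from a subcutaneous minipump (angII) and mice given angiotensin II together with VEGFCc156s, a VEGF-C variant selective for VEGFR-3 (angII+VEGFC), gave 4, 5 and 3 libraries in each of 4 populations. Heart lymphatic endothelial cells (LEC), diaphragm LEC and heart blood endothelial cells (BEC) were sorted as CD31-positive, CD45.2-negative cells that were eGFP-positive or eGFP-negative. Cardiomyocytes were not sorted but pelleted from digested heart at low speed, and each population came from the same mice except that 1 diaphragm LEC library in angII was from mouse 4 instead of mouse 12. The labels give ages of 8 to 16 months.

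The values were TPM (transcripts scaled to a common total), a length-corrected share of the transcripts of a library. TPM keeps no sequencing depth, so the depth is unknown and no counting interval was given. How many genes reached 1 TPM stood in for it, and this ran from 12924 to 25896. The endothelial libraries came from 2 sequencing batches of 6 libraries per population, and the cardiomyocytes formed a batch of their own, so that population and batch cannot be told apart there. Prox1 marked the lymphatic libraries, with medians of 176.3 TPM in heart LEC and 236.2 TPM in diaphragm LEC against 2.81 TPM in heart BEC, and Myh6, the main cardiac myosin heavy chain of the adult mouse, marked the cardiomyocytes at 1905 TPM. The cardiomyocyte fraction also held endothelial and fibroblast RNA, with Pecam1 at a median of 139.1 TPM and the fibroblast proteoglycan Dcn at 2339 TPM. Dcn was also present in the endothelial libraries, at medians of 437.1 TPM in heart BEC, 1018.7 TPM in heart LEC and 192.3 TPM in diaphragm LEC.

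Some lymphatic libraries stood apart in their mural genes. The summed level of the 10 genes was 932.9 TPM in heart LEC of angII mouse 3, 396.0 TPM in heart LEC of ctrl mouse 9 and 786.4 TPM in diaphragm LEC of ctrl mouse 9. The other heart LEC libraries lay between 73.3 and 293.1 TPM, and the other diaphragm LEC libraries between 78.7 and 187.3 TPM. Of the same libraries, heart LEC of mouse 3 had mesothelial markers at 130.1 TPM and diaphragm LEC of mouse 9 had them at 87.0 TPM, each the highest sum of its population, while heart LEC of mouse 9 had 5.26 TPM. The part of mesothelial or other RNA in the mural levels was not tested. The differences and spreads that moved most with these 3 libraries are also given without them, a choice made after seeing the data. The libraries were picked by the summed level of the same 10 genes, so values without them are descriptive and lend no support.

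Acta2 encodes the smooth muscle actin of the thin filament, and its promoter is a standard example of control by serum response factor, which binds CArG elements. In the RefSeq promoter windows (250 bases before to 50 after each start), available here for 8 of the 10 genes in 9 windows, the element was searched as CCNNNNNNGG with at most 1 G or C among the 6 inner bases, a form that reads the same on both strands. Acta2 was the member with a match, and it had 2 elements, shown here in capitals with the bases around them because Acta2 had the highest level of the 10 genes in the cardiomyocyte fraction. Both are on the minus strand of GRCm38.p6, at chr19:34255438-34255467 and chr19:34255388-34255417.
Acta2 element 1: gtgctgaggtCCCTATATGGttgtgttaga
Acta2 element 2: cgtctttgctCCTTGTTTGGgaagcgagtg
The first lies 84 to 75 bases and the second 34 to 25 bases upstream of the RefSeq start, and the GENCODE annotation of GRCm38 places both in the first, untranslated exon of its longer Acta2 gene model. Such a match was present in 9.98% of all 32851 promoter windows, and 0.822% held 2 or more. With only A and T inside, the element occurred in 1.63% of all windows and in none of the 9 windows of the members.

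The genes of the contractile apparatus had their highest levels in the cardiomyocyte fraction and, except Cnn1, were higher in heart BEC than in either lymphatic population by their medians. Acta2 (Ensembl ENSMUSG00000035783, GRCm38 chr19:34241090-34255590) had a median of 628 TPM over the 12 cardiomyocyte libraries, 77.9 TPM in heart BEC, 18.9 TPM in heart LEC and 15.4 TPM in diaphragm LEC. Tagln, which encodes the actin-binding protein transgelin (chr9:45929619-45936058), had medians of 315.8, 38.4, 12.4 and 6.54 TPM in the same order. Myh11, the smooth muscle myosin heavy chain and the member most restricted to smooth muscle (chr16:14194535-14291372), had medians of 56.8, 12.7, 2.21 and 2.18 TPM. Cnn1, which encodes calponin, an inhibitor of actomyosin in smooth muscle (chr9:22099216-22109630), departed from this order with 89.2 TPM in cardiomyocytes but 1.06 TPM in heart BEC, 3.17 TPM in heart LEC and 0.379 TPM in diaphragm LEC.

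The pericyte genes Rgs5, Cspg4 and Abcc9 shared one order of medians. Rgs5, a regulator of G protein signalling widely used as a pericyte marker (chr1:169655501-169695813), had medians of 113.8 TPM in cardiomyocytes, 83.3 TPM in heart BEC, 28.6 TPM in heart LEC and 5.66 TPM in diaphragm LEC. Cspg4, the NG2 proteoglycan of the pericyte surface (chr9:56865033-56899870), followed the same order at a lower level, with 9.81, 5.35, 1.74 and 0.290 TPM. Kcnj8 and Abcc9 encode Kir6.1 and SUR2, the pore and the regulatory subunit of the ATP-sensitive potassium channel of vascular mural cells, and they are neighbours on chromosome 6, 16247 bases apart (chr6:142564837-142571614 and chr6:142587862-142702315). Their levels parted. Abcc9 had medians of 21.9, 16.1, 6.16 and 3.38 TPM, in the order of Rgs5, whereas Kcnj8 lay at 65.0 TPM in cardiomyocytes and at 32.6, 35.2 and 37.9 TPM in heart BEC, heart LEC and diaphragm LEC.

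Mylk and Mrvi1 act on the contractile machinery from either side. Mylk (chr16:34745210-35002420), the myosin light chain kinase that starts contraction and that endothelial cells also make, had medians of 52.5 TPM in cardiomyocytes and 30.4, 31.6 and 31.2 TPM in heart BEC, heart LEC and diaphragm LEC. Mrvi1 (chr7:110868266-110982461), whose product IRAG is the cyclic GMP kinase substrate that restrains calcium release in smooth muscle, had medians of 14.0, 4.00, 2.68 and 1.19 TPM. Zeros were limited to the lymphatic libraries. Myh11 was listed at 0 in 4 heart LEC libraries, Cnn1 in 2 heart LEC and 2 diaphragm LEC libraries, Cspg4 in 1 of each and Mrvi1 in 1 heart LEC library.

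**Figure D1:**
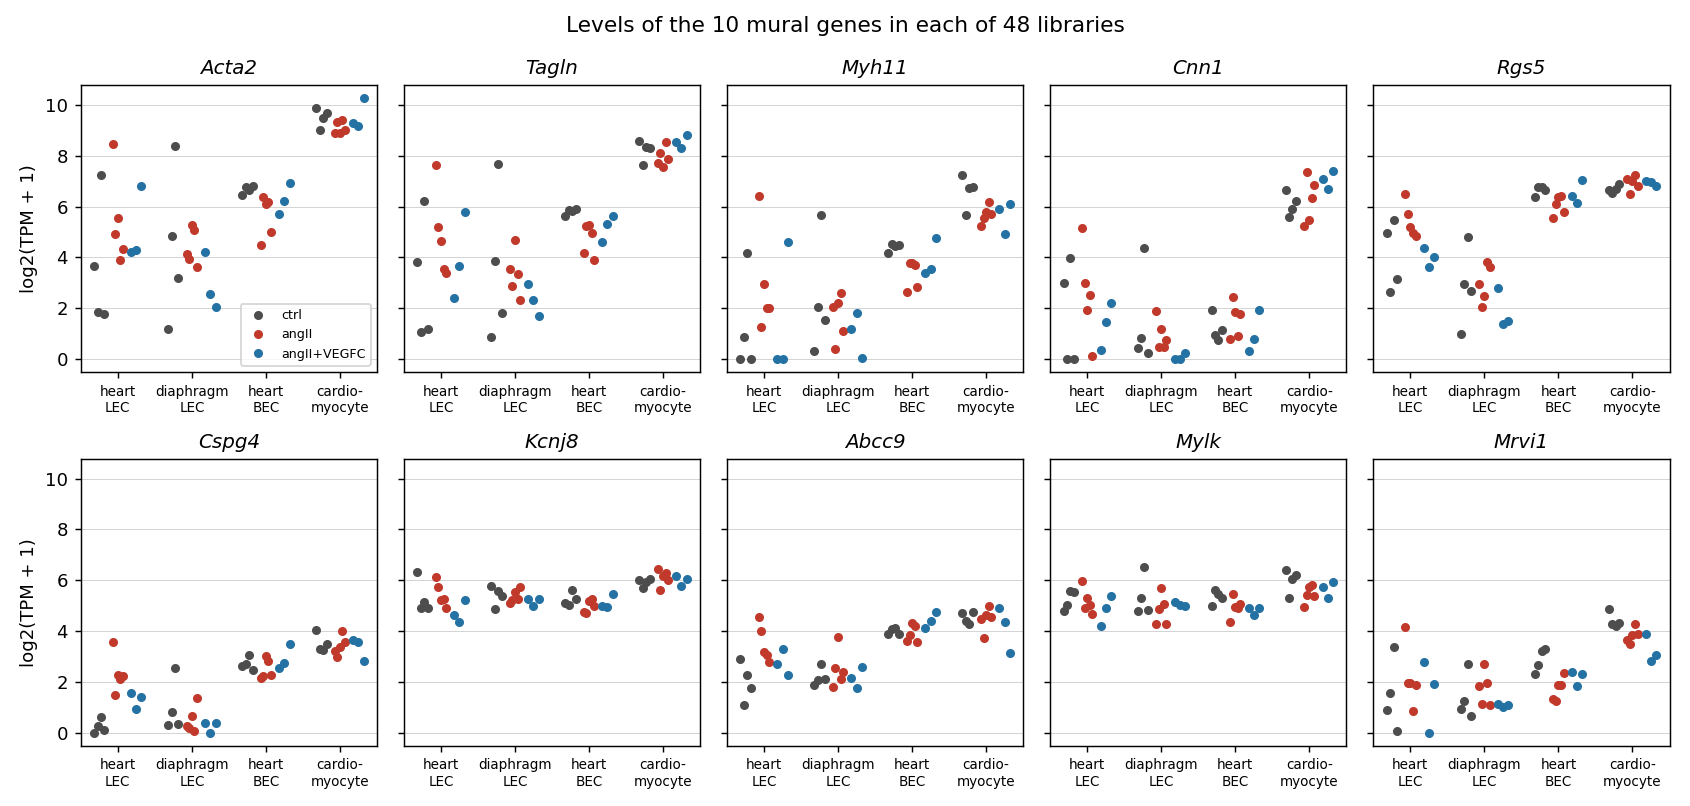
Level of each of the 10 mural genes as log2(TPM + 1) in every library, by population and treatment (colours), each point 1 library. Acta2 and Tagln are highest in cardiomyocytes, a single heart LEC library reaches 351.8 TPM of Acta2, and Kcnj8 and Mylk stay in a narrow band in the endothelial populations.

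Whether mural genes accompanied one endothelial population more than another was tested in a linear model over all 48 libraries (limma on log2(TPM + 1), age and batch as covariates, Benjamini-Hochberg adjustment over 33308 genes, threshold 0.05). Fold changes below are on that log2 scale, which understates changes of genes near 0, and each is the equal mean over the 3 treatments with its standard error. In bulk RNA, fewer cells of a type and less RNA per cell cannot be told apart. Because the spread differed between populations, the differences within the same mouse were also tested with an exact two-sided sign-flip permutation test, given without adjustment.

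Against heart LEC, heart BEC had higher levels of 4 of the 10 genes, beside 9.39% of all genes tested, and the median difference of the 10 was 1.31 against -0.14 over all genes. Rgs5 was higher by 1.91 ± 0.28 (adjusted p = 8.49e-07), Cspg4 by 1.42 ± 0.22 (adjusted p = 2.77e-06), Abcc9 by 1.35 ± 0.23 (adjusted p = 8.12e-06) and Myh11 by 1.98 ± 0.53 (adjusted p = 0.00528). In same-mouse pairs, Rgs5 was higher in 11 of 12 mice (exact p = 0.00146), Cspg4 in 11 (exact p = 0.00537), Abcc9 in 10 (exact p = 0.00391) and Myh11 in 11 (exact p = 0.0234), where the smallest p the pairs allow is 0.000488. The other contractile genes did not pass. Acta2 differed by 1.47 ± 0.55 (adjusted p = 0.0539) and Tagln by 1.26 ± 0.53 (adjusted p = 0.0875), while Cnn1 had the opposite sign at -0.62 and was lower in heart BEC in 9 of 12 mice. The 3 lymphatic libraries of mice 3 and 9 were picked by high sums of these same genes. Leaving them out therefore favours a larger difference and a smaller spread here. Acta2, Tagln and Mrvi1 were then at 2.16 ± 0.35, 1.85 ± 0.35 and 0.92 ± 0.25. Their adjusted p fell below the threshold, 7 genes in all being called, but this cannot count as support. Of 6 fibroblast markers, 4 were higher and 1 lower in heart BEC than in heart LEC. Their summed level was nevertheless higher in heart LEC, with medians of 1317, 846.9 and 1231 TPM in ctrl, angII and angII+VEGFC. In heart BEC these medians were 776.2, 609.6 and 638.1 TPM. The part of fibroblast RNA in the mural differences was not tested.

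Against diaphragm LEC, heart BEC had higher levels of 6 of the 10 genes, beside 9.72% of all genes, with a median of 1.97 against -0.03. Rgs5 had the largest difference, 3.80 ± 0.28 (adjusted p = 7.61e-15), and was higher in each of the 11 mice with both libraries (exact p = 0.000977, the smallest possible). Cspg4 and Abcc9 were also higher in 11 of 11 mice (exact p = 0.000977 each), by 2.12 ± 0.22 and 1.82 ± 0.23 (adjusted p = 2.12e-10 and 1.23e-08). The contractile genes Acta2, Tagln and Myh11 were higher by 2.25 ± 0.56, 2.14 ± 0.53 and 2.18 ± 0.53 (adjusted p = 0.00187, 0.00206 and 0.00174). In the same-mouse pairs their exact p was 0.00684, 0.00586 and 0.00391. With the ctrl libraries alone, Rgs5, Cspg4 and Abcc9 were the 3 genes that passed.

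Between the lymphatic populations, Rgs5 was the 1 gene of the 10 that passed, beside 4.01% of all genes in this direction. It was higher in heart LEC than in diaphragm LEC by 1.89 ± 0.28 (adjusted p = 6.11e-06), in 10 of 11 mice (exact p = 0.00195). Cspg4 differed by 0.70 (adjusted p = 0.0523), and it became the second called gene when mouse was a random replicate block. It was also called when the lymphatic libraries of mice 3 and 9 were left out, a choice that used the levels of these same genes. Fibroblast markers differed between these populations too, 4 of 6 being higher in heart LEC. The median sums of 6 blood endothelial markers were 1829, 1795.5 and 1919 TPM in heart LEC of ctrl, angII and angII+VEGFC. In diaphragm LEC they were 1468, 1263 and 1513 TPM. The part of fibroblast or blood endothelial RNA in the Rgs5 difference was not tested. Rgs5 itself did not pass with the 4 ctrl libraries of each population alone.

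Kcnj8 and Mylk did not differ by the test between any of the 3 endothelial populations, and the intervals were narrow. For Kcnj8 the 95% confidence interval of the log2 difference ran from -0.34 to 0.26 for heart BEC against heart LEC, from -0.50 to 0.11 against diaphragm LEC and from -0.46 to 0.15 between the lymphatic populations. For Mylk the intervals were -0.42 to 0.34, -0.44 to 0.32 and -0.40 to 0.36. Abcc9, the partner subunit of Kcnj8, was called in the same libraries with differences of 1.35 and 1.82 for heart BEC against heart and diaphragm LEC, and whether the 2 subunits differ in this was not tested.

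**Figure D2:**
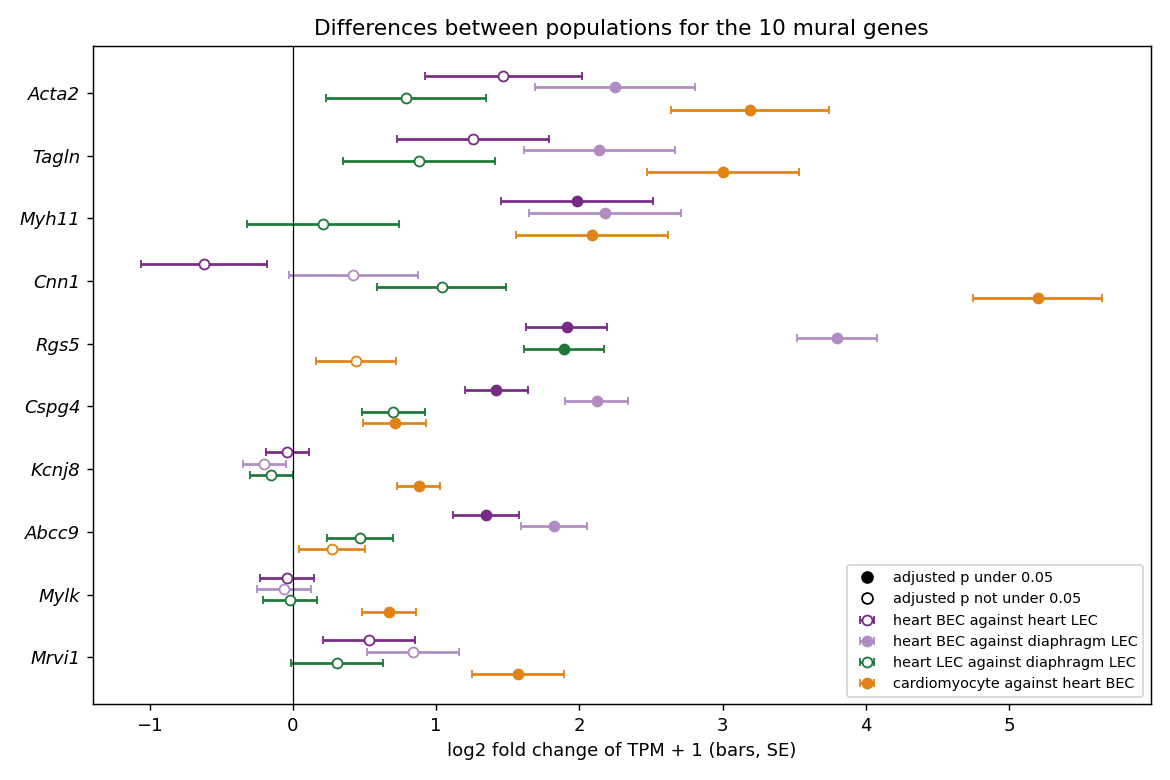
Fitted log2 difference of each mural gene between pairs of populations (colours), with its standard error (bars) and a line at 0. Filled points passed the adjusted threshold. Among endothelial pairs Rgs5 lies farthest from 0, at 3.80, and Kcnj8 and Mylk stay near it, whereas Cnn1 reaches 5.20 in cardiomyocytes against heart BEC.

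The cardiomyocyte fraction had higher levels of 8 of the 10 genes than heart BEC, beside 6.48% of all genes. Cnn1 differed most, by 5.20 ± 0.45 (adjusted p = 2.35e-13), followed by Acta2 at 3.19 ± 0.55 and Tagln at 3.00 ± 0.53 (adjusted p = 4.89e-06 and 6.78e-06). Kcnj8 and Mylk, not called among endothelial populations, were higher here by 0.88 ± 0.15 and 0.67 ± 0.19 (adjusted p = 3.23e-06 and 0.00334). The pericyte genes Rgs5 and Abcc9 did not pass, at 0.44 (adjusted p = 0.218) and 0.27 (adjusted p = 0.351). In same-mouse pairs, Rgs5 was nevertheless higher in 9 of 12 mice with an exact p of 0.00977 before adjustment, and Abcc9 in 9 of 12 with an exact p of 0.125. With the ctrl libraries alone 3 genes passed, Cnn1, Kcnj8 and Mrvi1.

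Against heart LEC and diaphragm LEC the fraction was higher in 10 of 10 genes, beside 6.74% and 7.77% of all genes, with log2 differences of 0.63 to 4.66 and 0.61 to 5.62. Fibroblast markers summed to 2157 to 4724 TPM and leukocyte markers to 412.9 to 1332 TPM in this fraction. Blood endothelial markers summed to 398.6 to 665.2 TPM there, against 2571 to 4051 TPM in heart BEC. The part of those cells in the mural levels of the fraction was not tested.

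Most of the 10 genes varied more among mice in lymphatic libraries than in the others. The standard deviation of log2(TPM + 1) over the 12 libraries of a population was 2.02 for Acta2 in heart LEC, 1.85 in diaphragm LEC, 0.75 in heart BEC and 0.42 in cardiomyocytes. Myh11 had 2.12, 1.48, 0.67 and 0.66, and Rgs5 had 1.11, 1.10, 0.43 and 0.22. At the other end, Kcnj8 had 0.58, 0.28, 0.27 and 0.24, and Mylk had 0.48, 0.60, 0.37 and 0.43. Part of this lay in the libraries that stood apart. Without heart LEC of mice 3 and 9 and diaphragm LEC of mouse 9, the standard deviation was 1.53 and 1.30 for Acta2, 1.55 and 0.85 for Myh11 and 0.98 and 0.90 for Rgs5 in heart and diaphragm LEC. Myh11 in heart LEC with all libraries ran from a listed value of 0 in ctrl mouse 1 to 83.2 TPM in angII mouse 3.

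**Figure D3:**
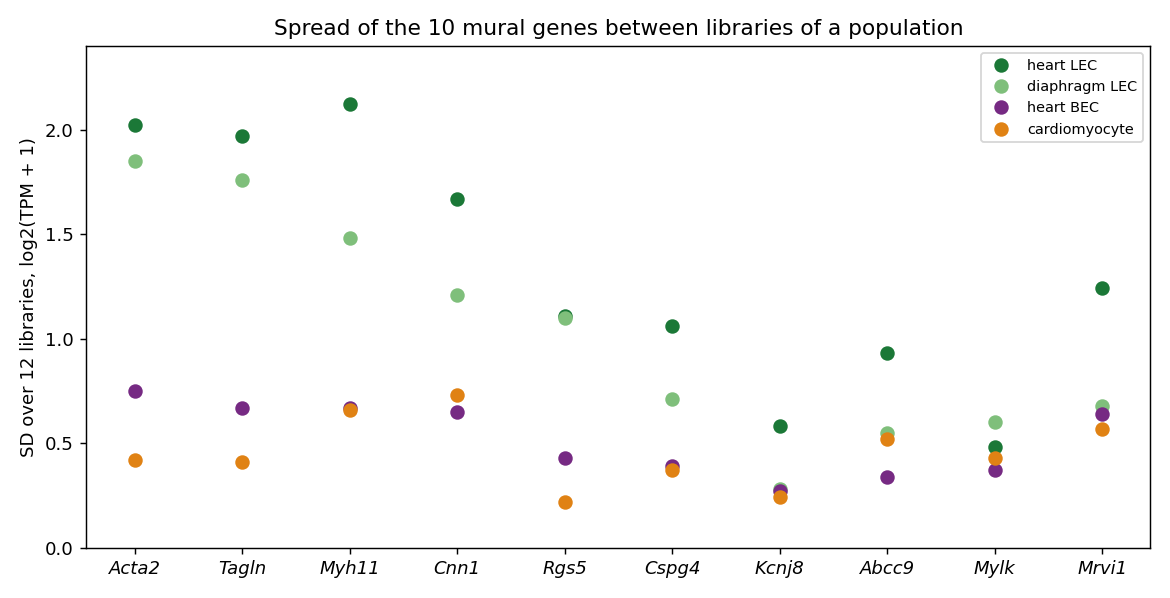
Standard deviation of log2(TPM + 1) over the 12 libraries of a population, for each of the 10 mural genes (each point is 1 gene in 1 population). The contractile genes have values up to 2.12 in the lymphatic populations, and Kcnj8 stays at 0.58 or less in all 4.

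Across the 12 libraries of a population, the contractile genes went together. Acta2 and Myh11 had a Pearson r of 0.872 in heart LEC (permutation p = 1.7e-04, adjusted p = 6.8e-04 over 12 relations), 0.886 in diaphragm LEC (adjusted permutation p = 0.00186), 0.956 in heart BEC (adjusted permutation p = 1.2e-04) and 0.651 in cardiomyocytes (adjusted permutation p = 0.0423). Spearman's rho was 0.815, 0.832, 0.965 and 0.748. Without the 2 libraries farthest from the median of Acta2 the r was 0.727, 0.655, 0.945 and 0.735, given without a test. Within treatments r was 0.885, 0.899, 0.934 and 0.767. Within the 2 endothelial batches of 6 libraries r was 0.959 and 0.774 in heart LEC, 0.941 and 0.791 in diaphragm LEC, and 0.958 and 0.963 in heart BEC.

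Myh11 and Rgs5, a smooth muscle and a pericyte gene, were also closely related in heart BEC, with an r of 0.934 and a rho of 0.818 (adjusted permutation p of r = 2.4e-04), 0.875 without the 2 farthest libraries, and 0.974 and 0.828 within batches. In diaphragm LEC r was 0.780 and rho 0.657 (adjusted permutation p of r = 0.00571), but 0.531 without the 2 farthest libraries. The relation did not pass adjustment in heart LEC (r = 0.589, rho = 0.580, adjusted permutation p = 0.0762), where it was 0.887 in 1 batch and 0.177 in the other, and in cardiomyocytes r was -0.193 over all libraries but 0.264 within treatments. Kcnj8 and Abcc9, the channel subunits, had r values of 0.480, 0.377, 0.531 and 0.398 in heart LEC, diaphragm LEC, heart BEC and cardiomyocytes (adjusted permutation p = 0.15, 0.254, 0.113 and 0.243), none past the threshold.

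**Figure D4:**
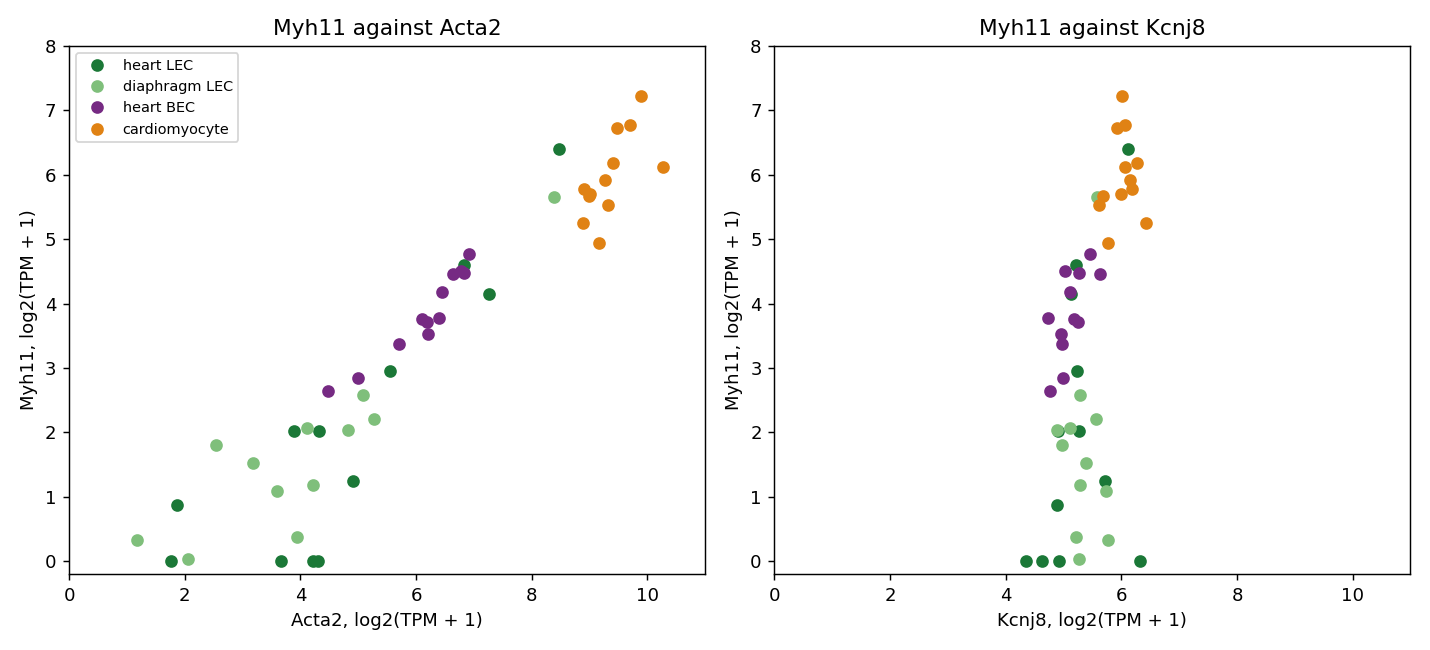
Myh11 against Acta2 and Myh11 against Kcnj8, each point 1 library, both axes log2(TPM + 1), coloured by population. Myh11 climbs with Acta2 in each endothelial population, with r between 0.872 and 0.956, whereas Kcnj8 stays within a narrow range whatever the level of Myh11.

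As deviations from the population means over all 48 libraries, which share mice and batches, Acta2 and Tagln had an r of 0.958, the closest pair of the 10, and Abcc9 and Mylk the lowest at 0.200. Kcnj8 had 0.259 with Acta2. Of the 19696 genes with a mean of 1 TPM or more, members included, the non-members most like Myh11 were Myl9 (0.847), Tpm2 (0.837), Lmod1 (0.833), Susd5 (0.799) and Rbpms2 (0.775). Lmod1 and Susd5 were near the floor in endothelium, with medians of 0.0881 and 0.0148 TPM in heart LEC. These values include the 3 lymphatic libraries that stood apart. The non-members most like Rgs5 were Sparcl1 (0.827), Higd1b (0.817), Tpm2 (0.788), Myl9 (0.784) and Ly6c1 (0.763). Myl9 and Tpm2, a regulatory light chain and a tropomyosin of smooth muscle, were thus near both.

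Treatment was compared within each population, with different mice in each group, so that p-values measure the spread between mice. The 3 contrasts of a population share libraries. None of the 10 genes passed the adjusted threshold in any of the 12 treatment contrasts, so the values below are given as sizes with their standard errors and adjusted p, and members with an unadjusted p under 0.05 are counted.

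In heart BEC the fitted difference between angII and ctrl was near -1 on the log2 scale for the contractile genes Acta2, Tagln and Myh11, but none passed after adjustment over all genes. The Acta2 level was 86.0, 108.3, 98.9 and 112.5 TPM in ctrl mice 1, 5, 9 and 11 and 21.2, 83.02, 68.1, 71.9 and 30.9 TPM in angII mice 3, 15, 12, 18 and 14. Every angII library was below every ctrl library. Tagln was 48.3, 56.7, 56.4 and 58.6 TPM in ctrl and 16.9, 36.6, 37.6, 30.1 and 13.7 TPM in angII. Myh11 was 17.2, 21.8, 21.0 and 21.2 TPM in ctrl and 5.24, 12.8, 12.6, 12.2 and 6.19 TPM in angII. These 3 genes were the members whose groups did not overlap downwards, beside 0.898% of the 21281 genes tested, and mice 3 and 14 were the lowest for each.

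The fitted differences were -1.02 ± 0.33 for Acta2 (adjusted p = 0.809), -1.08 ± 0.30 for Tagln (adjusted p = 0.698) and -1.02 ± 0.30 for Myh11 (adjusted p = 0.727). Mrvi1, the relaxing arm, was 4.02, 5.38, 8.32 and 8.70 TPM in ctrl and 1.48, 1.37, 2.72, 2.69 and 4.09 TPM in angII, a difference of -1.25 ± 0.27 (adjusted p = 0.671). Its groups overlapped by a single library, that of angII mouse 14. Rgs5 was 81.8, 109.4, 108.2 and 98.8 TPM in ctrl and 45.8, 66.9, 83.1, 84.4 and 54.1 TPM in angII, a difference of -0.60 ± 0.19 (adjusted p = 0.809). Mylk differed by -0.39 ± 0.18 (adjusted p = 0.919).

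Thus 6 of the 10 genes were lower at an unadjusted p under 0.05, where 2.83% of all genes tested were, and 0% of all genes passed the adjusted threshold. The 6 genes are not independent of each other. In these heart BEC libraries Acta2 and Myh11 had an r of 0.956, and Myh11 and Rgs5 had an r of 0.934. The median difference of the 10 genes was -0.49, against -0.06 over all genes. The other pericyte genes had smaller values, with Cspg4 at -0.24, Kcnj8 at -0.33 and Abcc9 at -0.08, and Cnn1 was at 0.42. Leaving out each library in turn moved Acta2 between -1.16 and -0.66, Tagln between -1.23 and -0.90, Myh11 between -1.15 and -0.80, Rgs5 between -0.70 and -0.47, Mylk between -0.51 and -0.23 and Mrvi1 between -1.38 and -1.08. For Acta2, the end of the range nearest 0 came from leaving out angII mouse 3, with -0.66 against -1.02 with all libraries.

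Other markers in the same heart BEC libraries moved in part with treatment. Cardiomyocyte markers summed to 191.2 to 425.0 TPM in ctrl and 126.5 to 198.0 TPM in angII, and leukocyte markers to 21.4 to 36.1 TPM and 28.0 to 69.8 TPM. Fibroblast markers were 3716, 902.4, 650.0 and 526.8 TPM in ctrl and 2257, 419.6, 513.2, 609.6 and 617.2 TPM in angII, overlapping between groups. The median of genes reaching 1 TPM was 18112 in ctrl and 17439 in angII. Their part in the mural differences was not tested.

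With VEGFCc156s added, the mean of Acta2 in heart BEC was 81.3 ± 35.3 TPM (SD, n = 3), between 101.4 ± 11.8 TPM in ctrl (n = 4) and 55.0 ± 27.2 TPM in angII (n = 5), and the means of Tagln, Myh11 and Rgs5 also lay between the other groups. In the angII+VEGFC mice 2, 6 and 8, Acta2 was 51.0, 72.8 and 120.1 TPM, Tagln 23.1, 39.1 and 47.99 TPM, Myh11 9.41, 10.6 and 26.2 TPM and Rgs5 83.5, 69.2 and 129.8 TPM. Mouse 8 was the highest for each of the 4 genes and lay above the ctrl range for all but Tagln. Against angII, the difference was positive for 8 of the 10 genes and for 55% of all genes, with medians of 0.46 and 0.03. None of the genes tested was called (0%). Mrvi1 had the one unadjusted p under 0.05 (0.71 ± 0.32, adjusted p = 1), where 1.47% of all genes were higher at that level. Acta2 differed by 0.58, Tagln by 0.42 and Myh11 by 0.44. Against ctrl, with 0% of genes called, Mylk was lower in all 3 mice than in any ctrl mouse (-0.53 ± 0.21, adjusted p = 0.865). Without ctrl mouse 5 the difference of Mylk was -0.34. Tagln was also below and Abcc9 above every ctrl library, beside 2.38% of genes lower without overlap and 2.55% higher.

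**Figure D5:**
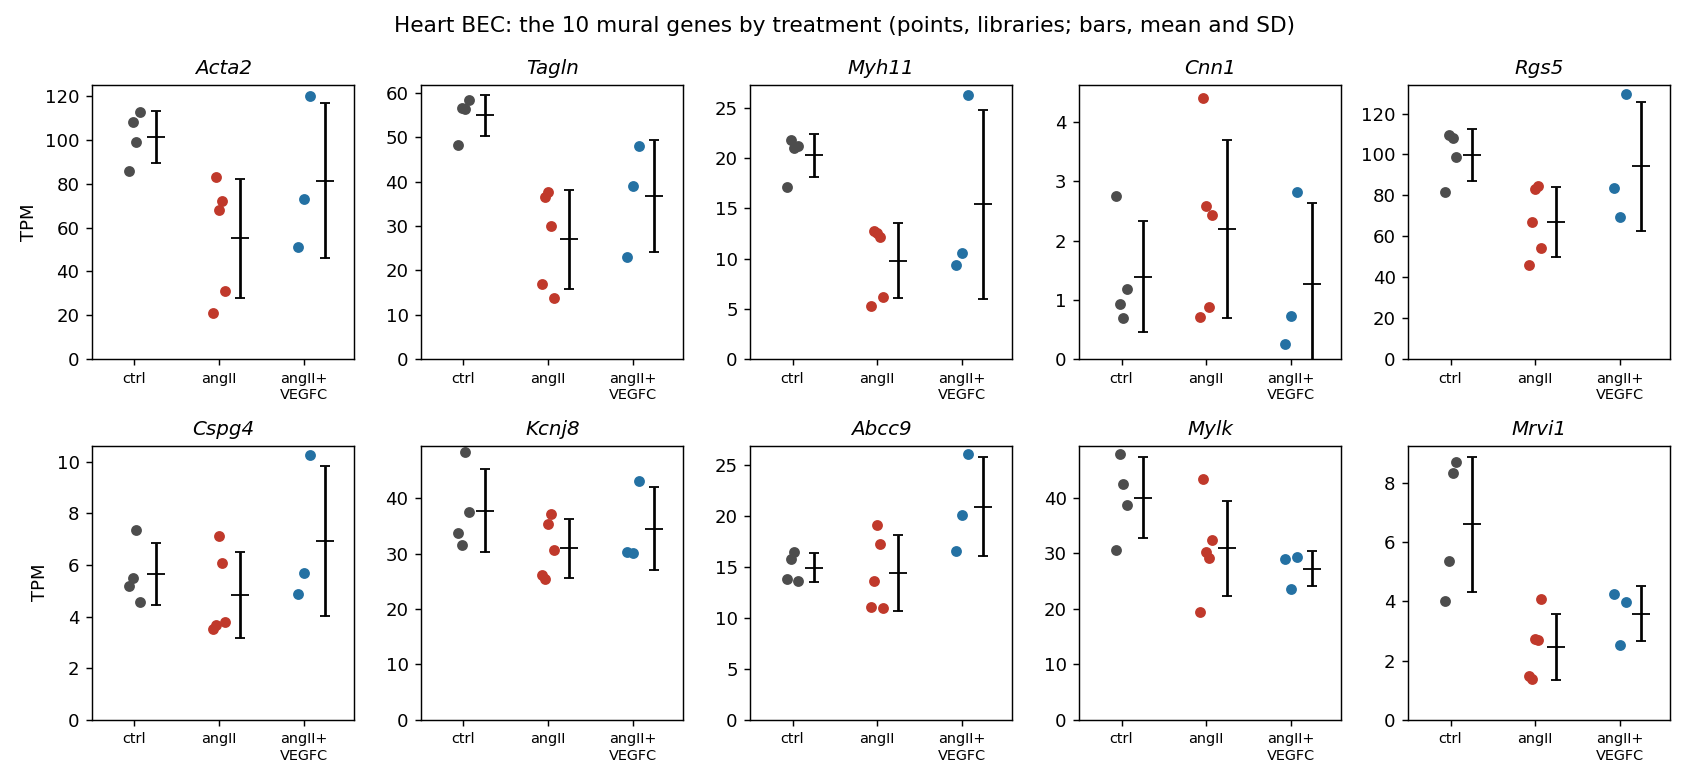
Level in TPM of the 10 mural genes in the 12 heart BEC libraries by treatment, each point 1 mouse, with the mean and standard deviation of each group. Acta2, Tagln and Myh11 in angII lie below every ctrl library, and in angII+VEGFC mouse 8 lies above the ctrl range for Acta2 and Myh11 and just below it for Tagln.

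In heart LEC the fitted differences of the pericyte genes between angII and ctrl were positive, and again no member passed. The Cspg4 level was 0, 0.208, 0.555 and 0.0873 TPM in ctrl mice 1, 5, 9 and 11 and 10.8, 1.81, 3.88, 3.38 and 3.64 TPM in angII mice 3, 15, 12, 18 and 14. The groups did not overlap, as for 2.13% of genes in this direction. Cspg4 reached 1 TPM in 0 of 4 ctrl, 5 of 5 angII and 2 of 3 angII+VEGFC libraries, so it entered the test through the groups where it was high, which favours such a separation. The difference was 2.09 ± 0.53 (adjusted p = 0.21), with 1.64 without mouse 3 and 2.32 without ctrl mouse 9 as the ends of the range when each library was left out. It depended on the scale near 0, at 3.98 with a pseudocount of 0.1 TPM and 1.39 after quantile normalisation.

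Rgs5 in heart LEC was 29.9, 5.14, 43.9 and 7.95 TPM in ctrl and 88.1, 50.8, 35.8, 30.3 and 27.4 TPM in angII, groups that overlapped, with a difference of 1.26 ± 0.49 (adjusted p = 0.373). Abcc9 was 6.48, 1.16, 3.82 and 2.41 TPM in ctrl and 22.6, 14.9, 8.10, 7.44 and 5.84 TPM in angII, a difference of 1.5 ± 0.49 (adjusted p = 0.308). These 3 genes were the members with an unadjusted p under 0.05, in a contrast where 8.94% of all genes were higher at that level and 0.0261% of genes passed adjustment. The contractile genes had wider errors, with Acta2 at 1.69 ± 0.94, Tagln at 1.79 ± 0.92, Myh11 at 1.78 ± 1.14 and Cnn1 at 0.84, and Mylk was at -0.04. Of the 10 genes, 9 had positive differences, with a median of 1.38 against 0.23 over all genes. Without the lymphatic libraries of mice 3 and 9, the differences of Cspg4, Rgs5 and Abcc9 were 1.76, 1.45 and 1.22, and those of Acta2, Tagln and Myh11 were 2.71 ± 0.76, 2.99 ± 0.90 and 2.70 ± 1.12 (adjusted p = 0.552, 0.573 and 0.731).

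The number of genes detected also moved with this contrast, with medians of 18360 genes reaching 1 TPM in ctrl, 22814 in angII and 18425 in angII+VEGFC. The difference of means was 3705 genes between angII and ctrl (exact permutation p = 0.0952). It was -4918 between angII+VEGFC and angII (exact permutation p = 0.0357). After Benjamini-Hochberg adjustment over the treatment contrasts of all 4 populations these permutation p-values were 0.286 and 0.143. With this number as a covariate the differences between angII and ctrl were 2.20 for Cspg4, 0.71 for Rgs5 and 0.78 for Abcc9. Cardiomyocyte markers summed to 135.4 to 383.7 TPM in ctrl and 160.2 to 961.6 TPM in angII, and their part was not tested.

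In angII+VEGFC, Cspg4 of heart LEC was 1.94, 0.901 and 1.68 TPM in mice 2, 6 and 8, each above every ctrl library, as for 1.82% of genes. Rgs5 was 19.8, 11.3 and 15.3 TPM there, each below every angII library, as for 7.33% of genes. The difference between angII+VEGFC and angII was negative for all 10 genes and for 72% of all genes tested. The median was -0.90 against -0.37 over all genes, and 0% of genes passed. Kcnj8 had the one unadjusted p under 0.05 (-0.94, adjusted p = 0.434). At that level 9.75% of all genes were lower, so 1 of 10 lies near the background. The difference of Kcnj8 was -0.54 without angII+VEGFC mouse 6 and 0.08 with the number of detected genes as a covariate. Against ctrl, 0% of genes passed as well.

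In diaphragm LEC, where a different lymphatic bed of mostly the same mice was sampled, 9 of the 10 genes could be tested, because Cspg4 reached 1 TPM in too few of the libraries. No member passed and 0% of genes were called in each of the 3 contrasts. The median differences of the members were -0.05 for angII against ctrl, -0.39 for angII+VEGFC against angII and -0.54 for angII+VEGFC against ctrl, beside 0.28, -0.21 and 0.05 over all genes. The number of genes reaching 1 TPM moved here too, with medians of 16862 in ctrl, 20742 in angII and 16427 in angII+VEGFC. Its means differed by 5499 between angII and ctrl (exact permutation p = 0.0159, adjusted as in heart LEC 0.143). Between angII+VEGFC and angII they differed by -5102 (exact permutation p = 0.0357, adjusted 0.143). Acta2 was 1.26, 27.3, 333.2 and 8.07 TPM in ctrl mice 1, 5, 9 and 11 and 16.3, 14.4, 37.8, 32.7 and 11.2 TPM in angII mice 3, 15, 4, 18 and 14. The single library of mouse 9 thus lay above all others. Without it 8 genes could be tested, the medians of the members were 0.69, -0.76 and -0.05, and Acta2 and Tagln differed between angII and ctrl by 1.71 ± 0.71 and 1.58 ± 0.68 (adjusted p = 0.655 each), where the fits with it gave 0.00 and -0.26. Cnn1, which left the test without mouse 9, was the member without overlap, at 0, 0 and 0.184 TPM in angII+VEGFC and 0.374 to 2.67 TPM in angII, as for 7.35% of genes. It reached 1 TPM in 1 ctrl, 2 angII and 0 angII+VEGFC libraries. Cnn1 thus entered the test through the groups where it was high, which favours such a separation.

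In the cardiomyocyte fraction, Myh11 was 149.1, 49.9, 105.1 and 108.2 TPM in ctrl mice 1, 5, 9 and 11 and 37.1, 45.4, 53.9, 71.7 and 50.9 TPM in angII mice 3, 15, 12, 18 and 14. The ctrl library of mouse 5 lay within the angII range and the others above it. The difference was -1.0 ± 0.28 (adjusted p = 0.193) and ran from -1.22 to -0.72 when each library was left out. Mylk and Mrvi1 differed by -0.60 ± 0.22 (adjusted p = 0.355) and -0.62 ± 0.24 (adjusted p = 0.39). These 3 genes were the members lower at an unadjusted p under 0.05, where 1.85% of all genes were, and 0.0892% of genes passed adjustment. Myh11 passed once, with an adjusted p of 0.0431 when the number of detected genes was a covariate. Acta2 overlapped between the groups, at 510.1 to 944.2 TPM in ctrl and 472.8 to 673.1 TPM in angII.

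In cardiomyocytes of angII+VEGFC mice, Mrvi1 and Cnn1 had differences from ctrl of opposite sign, neither past the threshold. Mrvi1 was 28.4, 18.4, 17.4 and 18.9 TPM in ctrl and 14.0, 6.06 and 7.39 TPM in angII+VEGFC, with no overlap, as for 4.78% of genes lower. The difference was -1.09 ± 0.27 (adjusted p = 0.094), between -1.47 and -0.83 with each library left out, and it passed after quantile normalisation (adjusted p = 0.0247) and with the first residual principal component as a covariate (adjusted p = 0.0421). Cnn1 was 98.9, 47.2, 58.4 and 72.9 TPM in ctrl and 135.0, 101.6 and 166.6 TPM in angII+VEGFC, again without overlap, as for 9.19% of genes higher, with a difference of 1.04 ± 0.43 (adjusted p = 0.315). Myh11 was lower by the fit (-0.82 ± 0.33, adjusted p = 0.301), or -0.44 without ctrl mouse 1. Over all genes, 0.663% passed in this contrast.

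Between angII+VEGFC and angII cardiomyocytes 0% of genes passed. Tagln had a difference of 0.69 ± 0.26 (adjusted p = 1), with 374.1, 314.9 and 449.0 TPM against 189.3 to 369.1 TPM. Cnn1 had a difference of 0.93 ± 0.43 (adjusted p = 1), or 0.44 without angII mouse 3. Fibroblast markers were 2157 to 3113 TPM in ctrl, 3102 to 4551 TPM in angII and 3091 to 4724 TPM in angII+VEGFC cardiomyocytes, with medians of 2502, 3936 and 4685 TPM. Leukocyte markers were 412.9 to 545.9 TPM in ctrl, 579.1 to 1255 TPM in angII and 622.8 to 1332 TPM in angII+VEGFC, and the part of either in the Myh11, Mylk, Mrvi1, Tagln and Cnn1 differences was not tested.

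Whether angiotensin II acted differently in the endothelial populations was tested as an interaction over the 36 endothelial libraries and 32754 genes. No member passed in any of the 6 interaction contrasts, and 0% of all genes did, except 0.00611% for heart LEC against diaphragm LEC in angII against ctrl. The difference between heart LEC and heart BEC in the response to angII was positive for all 10 genes, with a median of 1.90 against 0.24 over all genes. It was 2.30 ± 0.57 for Cspg4 (adjusted p = 0.399), 1.98 ± 0.72 for Rgs5 (adjusted p = 0.567), 1.58 ± 0.53 for Abcc9 (adjusted p = 0.513), 2.91 ± 1.36 for Tagln (adjusted p = 0.681) and 1.83 ± 0.83 for Mrvi1 (adjusted p = 0.673). For angII+VEGFC against angII, the same difference was -1.91 for Rgs5, -1.47 for Cspg4 and -1.28 for Abcc9 (adjusted p = 0.768 each). Without the 3 lymphatic libraries of mice 3 and 9 the median for angII against ctrl was 2.02 and the values of Cspg4, Rgs5, Abcc9, Tagln and Mrvi1 were 2.07, 2.07, 1.42, 3.52 and 1.96, and those of Rgs5, Cspg4 and Abcc9 for angII+VEGFC against angII were -1.56, -1.15 and -1.04, none past the threshold. Opposite signs of the mural differences in heart LEC and heart BEC were thus not distinguishable after adjustment over all genes.

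Other genes of the same cells were taken as lists. These lists were chosen with earlier results of these data known, so their counts and medians are descriptive and lend no support. Of 14 further pericyte genes, 11 were higher and 1 lower in heart BEC than in heart LEC, and 13 were higher and 1 lower than in diaphragm LEC, with median differences of 1.65 and 2.07 against -0.14 and -0.03 over all genes. The gene lower in both was Anpep, a membrane aminopeptidase not limited to pericytes, at -1.99 and -1.53 (adjusted p = 3.49e-11 and 1.95e-08), named here after its values were seen. Notch3, the receptor that maintains mural identity, was higher in heart BEC by 1.74 and 2.06 than in heart and diaphragm LEC (adjusted p = 6.73e-06 and 1.74e-07) and had a log2 difference of 0.05 between cardiomyocytes and heart BEC, which did not pass. Pdgfrb, the receptor for PDGF-B, was higher in heart LEC than in diaphragm LEC by 2.69 (adjusted p = 1.95e-10). Between heart BEC and heart LEC it differed by 0.51 (adjusted p = 0.164), being higher in heart BEC in 10 of 12 mice. Fibroblast markers had median sums of 1317, 846.9 and 1231 TPM in heart LEC of ctrl, angII and angII+VEGFC. In diaphragm LEC these sums were 156.2, 326.7 and 219.9 TPM. The part of fibroblast RNA in the Pdgfrb difference was not tested. Des, an intermediate filament of mural cells and of heart muscle, was higher in heart BEC than in diaphragm LEC by 1.16 (adjusted p = 0.00475) and in cardiomyocytes than in heart BEC by 4.49. Between the lymphatic populations, Pdgfrb and Ndufa4l2 were the 2 of the 14 that were higher in heart.

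Of 12 further smooth muscle genes, 2 were higher and 2 lower in heart BEC than in heart LEC, 4 were higher and 1 lower than in diaphragm LEC, and 10 were higher and 2 lower in cardiomyocytes than in heart BEC. Over all genes the shares were 9.39% higher and 11.3% lower, 9.72% higher and 8.1% lower, and 6.48% higher and 36.1% lower in these 3 comparisons, so that 2 and 2 of 12 lie near the background. Myl9 was higher in heart BEC than in diaphragm LEC by 1.90 (adjusted p = 0.00205), and in cardiomyocytes than in heart BEC by 3.07. Myocd, the cofactor of serum response factor that cardiac muscle also expresses, was higher there by 1.93 (adjusted p = 2.74e-09). Of 14 genes of contraction and cyclic GMP relaxation, 2 were higher and 5 lower in heart BEC than in heart LEC, and 4 were higher and 6 lower than in diaphragm LEC, so this list had no common direction. Gucy1a1 and Gucy1b1, the subunits of the nitric oxide receptor guanylate cyclase, were among the lower ones, by -0.80 and -1.37 against heart LEC (adjusted p = 1.38e-04 and 8.83e-10) and -2.08 and -2.53 against diaphragm LEC (adjusted p = 1.92e-14 and 6.56e-18), and they too were picked out after their values were seen.

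Kcnj11 and Abcc8 encode Kir6.2 and SUR1, the other subunits of ATP-sensitive potassium channels, and both had their highest levels in cardiomyocytes. Their medians were 5.84 and 11.0 TPM there, against 0.16 and 0.0563 TPM in heart BEC, 0.0258 and 0.025 TPM in heart LEC and 0.155 and 0.172 TPM in diaphragm LEC. Both were higher in cardiomyocytes than in heart BEC, by 2.21 and 3.32 (adjusted p = 2.75e-11 and 2.61e-14), whereas neither was called between endothelial populations. In angII+VEGFC against ctrl cardiomyocytes they differed by -0.93 (adjusted p = 0.136) and -1.26 (adjusted p = 0.253).

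No gene of the 4 lists was called in any treatment or interaction contrast. In heart BEC, Des and Myl9 had differences of -0.66 (adjusted p = 0.812) and -0.77 (adjusted p = 0.814) in angII against ctrl, the same sign as Acta2, Tagln and Myh11 in the same libraries.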

How the data were processed

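RNA of 48 libraries (Smart-Seq amplification of low input RNA, Nextera XT) was compared in 4 populations and 3 treatments, grouped by the labels. The authors deposited 1 matrix of TPM values per Ensembl gene, made with STAR 2.5.3a and Salmon 0.12.0 on GRCm38, and gave no counts in it, so only shares of a library were available. Identifiers were matched to mouse symbols for 54723 of 54752 genes. Ages in the labels are in months, whereas the study's methods give weeks, and the labels were used. The 10 genes and the other gene lists were chosen with earlier results of these data known.

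Values were analysed as log2(TPM + 1) in limma 3.58.1 with a variance trend (R 4.3.3), keeping a gene when 3 or more libraries of the fit had it at 1 TPM or above, with age and, for endothelial libraries, sequencing batch as covariates. Adjusted p-values are Benjamini-Hochberg over all genes tested, with a threshold of 0.05. Treatments were fitted within each population, populations over all 48 libraries and the interaction over 36. The fits were also run on simulated data, but the outcome is not given here and lends no support. Since the fits share 1 spread, differences between populations were also tested by exact sign flips over same-mouse pairs. Other tests were permutation tests (100000 resamples for correlations, exact otherwise) in SciPy 1.17.1. The named genes were all 10 members, Pdgfrb, Notch3, Des, Myl9, Myocd, Kcnj11 and Abcc8, and the 5 genes most like Rgs5 and Myh11. Markers of fibroblasts, cardiomyocytes, skeletal muscle, leukocytes, mesothelium and both endothelia were summed per library. Skeletal muscle markers summed to 36.8 to 226.6 TPM in diaphragm LEC.

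Mouse numbers in the labels name the animal, so libraries of different populations with 1 number are paired. The correlation of deviations from group means averaged 0.036 over 69 same-mouse pairs and -0.010 over 231 pairs of different mice. Mouse as a fixed replicate block changed no count of called genes. No library lay beyond 3 SD on the first 2 principal components, and no pair of libraries was alike enough to be one library (highest correlation 0.986). Alternatives varied the pseudocount, filter, covariates, normalisation, libraries and block. RefSeq promoters (GRCm38.p6) and GENCODE annotation of GRCm38 gave sequences and positions.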

Additional observations from a re-analysis of the deposited data

Results flagged for a closer look

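In groups of 4 or 5 libraries, 4 member values lay farther from the rest of their group than Dixon's criterion allows, out of 80 groups tested, and chance gives about 1 in 20. Kcnj8 in heart LEC of ctrl mouse 1 was 78.75 TPM where the other ctrl libraries had 28.66 to 34.1 TPM. Cnn1 in diaphragm LEC of ctrl mouse 9, the library with the highest mural sum of its population, was 19.65 TPM against 0.181 to 0.7531 TPM. Mrvi1 in cardiomyocytes of ctrl mouse 1 was 28.35 TPM against 17.4 to 18.89 TPM, and Myh11 in heart BEC of the same mouse was 17.16 TPM against 20.97 to 21.84 TPM.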

How the results depend on the processing

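Of the counts of called members and the relations, 216 values were kept and 12 moved under the alternatives other than leaving out 1 library. A count was kept when equal, which includes 0 staying at 0, or within 1.5 times. A relation was kept when its call stayed. With 1 library left out, 449 counts were kept and 7 moved. Of the member values named above, under the other alternatives, 675 kept their direction and side of the threshold. A further 14 lost and 3 gained significance, and 1 reversed. The one reversal was Kcnj8 in heart LEC, angII+VEGFC against angII, at 0.08 with detected genes as a covariate. Treatment calls appeared under 3 alternatives, 1 member each: Mrvi1 in cardiomyocytes, angII+VEGFC against ctrl, with quantile normalisation and with the first residual principal component, and Myh11 in cardiomyocytes, angII against ctrl, with detected genes as a covariate. For heart LEC against diaphragm LEC the count was 2 with a pseudocount of 0.1 TPM, with detected genes as a covariate, without mitochondrially encoded genes, with mouse as a random replicate block, and without the LEC libraries of mice 3 and 9, and 0 with ctrl libraries only. It ran from 1 to 3 with each library left out, 3 being reached without diaphragm LEC of ctrl mouse 9 or heart LEC of angII mouse 14. For heart BEC against heart LEC it was 4 to 6 with each library left out. It was 7 without the LEC libraries of mice 3 and 9, picked by their high mural sums, so this count is not support. With ctrl libraries only, 3 members were called in heart BEC against diaphragm LEC and 3 in cardiomyocytes against heart BEC. The cause was not tested, except that ctrl libraries are fewer. The replicate block changed no other count of members. All 12 relations kept their call with log2(TPM + 0.1). TPM keeps no depth, so what depth limits is unknown.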
